A study of Homo sapiens with 4 samples.

Results

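A set of 6 stress-response genes was followed by symbol through every library of the series: GDF15, FGF21, ADM2, STC1 and STC2, which encode secreted hormones, and NUPR1, which encodes a small nuclear protein. The genes are 6 of the 58051 gene identifiers in the deposited tables. They were taken by name, but with earlier results of these data known. Poly(A) RNA was sequenced from H441 cells, grown from a human lung adenocarcinoma, and from HT29 cells, grown from a human colorectal adenocarcinoma, both wild type per the labels. Each line spent 7 days in the standard medium RPMI-1640 or in HPLM, whose small molecules are set near the concentrations of human plasma. Fetal bovine serum at 10% and an antibiotic mix were in all cultures. GEO lists 4 samples, 1 for each line and medium, and the tables hold 3 numbered columns for each, called libraries here, 12 in all. Nothing in the labels says that the libraries are separate cultures, and a p-value here therefore covers no more than the library-to-library spread, which may be technical.

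The integrated stress response is a shared pathway in which the kinases PERK, GCN2, PKR and HRI phosphorylate the translation factor eIF2alpha, general translation slows, and translation of the transcription factor ATF4 rises. ATF4, with its partners CHOP (gene DDIT3) and the C/EBP factors, then switches on amino acid synthesis, amino acid transport and several secreted factors. GDF15 is a distant member of the TGF-beta family that acts on the hindbrain receptor GFRAL, FGF21 is a metabolic hormone best known from liver that needs the co-receptor beta-Klotho, and ADM2, also called intermedin, is a peptide of the calcitonin and adrenomedullin family. STC1 and STC2 are stanniocalcins, glycoproteins linked to calcium and phosphate handling and, for STC2, to inhibition of the protease PAPPA. NUPR1 is not secreted: it is a chromatin-associated regulator that many kinds of stress induce.

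In the GENCODE v29 annotation of GRCh38, GDF15 spans chr19:18374731-18389176 on the plus strand and FGF21 spans chr19:48755559-48758333 on the same strand. ADM2 spans chr22:50481556-50486440 on the plus strand, NUPR1 spans chr16:28532708-28539174 on the minus strand, and STC2 spans chr5:173314713-173329503 on the minus strand. The library kit does not keep strand, so reads of overlapping genes cannot be told apart. Of the 6 genes only GDF15 overlaps another annotated gene, the microRNA gene MIR3189, with 0 exon bases in common.

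Promoter sequence is shown for the 3 hormone genes with the clearest differences between media below, because ATF4 and its partners are known to act at such sites. The windows are the 250 bases before the start annotated in RefSeq, in the sense strand of the gene, on GRCh38.p14. They lie at chr19:18385908-18386157 (GDF15), chr19:48755274-48755523 (FGF21) and chr22:50481293-50481542 (ADM2), each on the plus strand. The GDF15 window, and that of STC2 searched below, lie inside the GENCODE spans given above, so they are not the bases before those spans. Capitals mark a match to TGATGNAA, the letters of the C/EBP-ATF response element, read on the opposite strand.
GDF15: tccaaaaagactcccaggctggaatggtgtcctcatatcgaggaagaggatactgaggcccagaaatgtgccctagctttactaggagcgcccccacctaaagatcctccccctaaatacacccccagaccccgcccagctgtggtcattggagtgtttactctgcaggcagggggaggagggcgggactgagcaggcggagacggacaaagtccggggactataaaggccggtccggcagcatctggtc
FGF21: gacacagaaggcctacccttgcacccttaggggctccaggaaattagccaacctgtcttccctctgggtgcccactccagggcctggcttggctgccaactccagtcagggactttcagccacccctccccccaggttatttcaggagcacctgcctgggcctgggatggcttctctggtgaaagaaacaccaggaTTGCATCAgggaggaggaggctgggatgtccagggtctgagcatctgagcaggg
ADM2: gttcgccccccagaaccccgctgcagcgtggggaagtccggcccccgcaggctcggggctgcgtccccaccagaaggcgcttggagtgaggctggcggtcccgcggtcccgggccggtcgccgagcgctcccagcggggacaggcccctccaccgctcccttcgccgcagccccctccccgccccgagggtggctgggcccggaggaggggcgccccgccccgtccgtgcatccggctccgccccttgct
Only the FGF21 window held these letters, at positions -54 to -47 from the start. Both strands were searched, for TGATGNAA and for 5 other motifs: TGACGTCA (the cyclic AMP element), ACGTG (the hypoxia core), the endoplasmic reticulum stress element, TGACTCA (AP-1 type) and a longer AP-1 type element that contains it. No other match fell in the windows of GDF15, FGF21, ADM2 or STC2. Among 35116 RefSeq windows of the same length, 3.14% held TGATGNAA, 1.65% TGACGTCA, 18.5% ACGTG, 0.074% the endoplasmic reticulum stress element, 4.2% TGACTCA and 0.154% the longer element. Across a list of 26 ATF4 target genes described below, 4 of 32 windows held TGATGNAA. A match is a description of letters, and the absence of one says only that these letters are not in that window.

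Depth was 14.2 to 30.6 M recovered reads per library. H441 libraries carried lung epithelial transcripts, with 6 markers summing to 1066 to 2835 TPM (a level per transcript length, scaled to the same total in each library), and HT29 libraries carried colon epithelial transcripts, with 6 markers summing to 1318 to 2114 TPM. Endothelial markers summed to at most 24.8 TPM and fibroblast markers to at most 77.5 TPM in any library. The 8 leukocyte markers summed to 19.9 to 33.5 TPM in H441, and in HT29 to 2047 to 4387 TPM in RPMI-1640 and 1788 to 2114 TPM in HPLM. LYZ, lysozyme, made up most of the HT29 sum (1773 to 4356 TPM, the highest in RPMI-1640 library 1), and PTPRC, which encodes the pan-leukocyte protein CD45, reached at most 3.21 TPM in any library. In H441 the mitochondrial genes took 24.1 to 28.8% of TPM in RPMI-1640 and 17.5 to 21.7% in HPLM, which shifts all other TPM values, and the lung marker sum was 2755 to 2835 TPM in RPMI-1640 against 1066 to 1152 TPM in HPLM. One library stood apart: HT29 RPMI-1640 library 1 had the fewest reads, a mitochondrial share of 19.3% against 28.8 to 38.7% in the other HT29 libraries, and a weight of 0.0537 when limma weighed the 6 HT29 libraries by their fit. Whether this library carries the right label, or came from a culture handled like the others, is not known from the files and was not tested. HT29 tests of the members are therefore given with and without it. Without it the HT29 RPMI-1640 group holds 2 libraries. The library was set apart by its values, and several members are far lower in it than in its companions. Leaving it out narrows the spread of those genes, so p-values without it may overstate the evidence.

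H441 cells held more of 4 of these transcripts in HPLM than in RPMI-1640. NUPR1 was 5.41-fold higher, ADM2 2.45-fold and GDF15 2.43-fold, and FGF21 went from a few reads to about 1 TPM. STC1 was not seen in this line, and STC2 was near the limit of detection. In bulk RNA, more RNA per cell and more cells of a kind that holds the transcript cannot be told apart.

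GDF15 was the most abundant of the 6 transcripts in H441. Its level was 117.1, 113.5 and 126.2 TPM in HPLM libraries 1 to 3, and 47.5, 50.3 and 49.0 TPM in the RPMI-1640 libraries. The lowest HPLM library lay far above the highest RPMI-1640 library. Means were 118.9 ± 6.56 and 48.9 ± 1.40 TPM (SD, n = 3 each). Limma gave a log2 change of 1.26 ± 0.06 (SE) (HPLM over RPMI-1640, log2(TPM + 1) scale), with an adjusted p of 0.000156.

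ADM2, the calcitonin-family peptide, stood at 45.8, 45.0 and 48.7 TPM in HPLM. In RPMI-1640 it stood at 19.8, 21.1 and 16.0 TPM. The groups did not overlap, and their means were 46.5 ± 1.99 and 19.0 ± 2.64 TPM. The log2 change was 1.26 ± 0.11 (limma, adjusted p = 0.000707).

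NUPR1, the nuclear regulator, had the largest log2 change of the 3 genes that passed the filter on low values (at least 1 TPM in at least 3 libraries). It was at 21.9, 19.7 and 22.4 TPM in HPLM and at 3.78, 3.88 and 4.17 TPM in RPMI-1640. Within each medium the libraries lay close together, with means of 21.3 ± 1.43 and 3.94 ± 0.203 TPM. Limma placed the log2 change at 2.17 ± 0.07 (adjusted p = 7.45e-05).

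FGF21 was scarce in H441. The HPLM libraries listed 0.945, 1.04 and 1.25 TPM, from 6, 9 and 9 reads, and the RPMI-1640 libraries listed 0, 0.339 and 0.101 TPM, from 0, 2 and 1 reads. In the library with 0 reads, a count of 3 reads would have been 0.331 TPM. All HPLM libraries were higher than all RPMI-1640 libraries. Pooled over libraries, 24 reads against 3 gave a ratio of 8.95, with an exact 95% interval of 2.72 to 46.4 that covers counting error only. FGF21 fell below that filter, and in a limma fit with no filter its log2 change was 0.87 ± 0.13 (adjusted p = 0.00843). In that fit 18.6% of genes passed the threshold.

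The stanniocalcins were at the bottom of the range in H441. STC1 had 0 reads in all 6 libraries, where 3 reads would have been 0.0962 to 0.161 TPM, so levels below that were not detectable. STC2 had 2, 0 and 2 reads in HPLM and 3, 14 and 5 reads in RPMI-1640. Its highest level was 0.508 TPM in RPMI-1640 library 2, which held 14 of the 22 RPMI-1640 reads. By pooled reads STC2 was lower in HPLM, with a ratio of 0.203 (exact 95% interval 0.0510 to 0.599, counting error only). EdgeR on recovered reads called this difference (log2 change -2.37, adjusted p = 0.0221) and limma with no filter did not (-0.22, adjusted p = 0.402).

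Of the 6 genes, 3 passed the filter in H441 and all 3 of these rose in HPLM, where 33.7% of the 16458 genes tested were raised and 45.0% changed in either direction. All 3 calls held under each alternative scaling, filter, pseudocount and test, and with each library left out. The median gene rose by 0.14 in H441. With each library centred on its median the log2 changes were 1.08 for GDF15, 1.07 for ADM2 and 1.99 for NUPR1, and with the mitochondrial genes left out of the TPM they were 1.13, 1.13 and 2.10. With edgeR on recovered reads of all 6 genes, 5 were called, 4 higher and STC2 lower, beside 55.7% of all genes.

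In HT29 the picture turned on 1 library. RPMI-1640 libraries 2 and 3 held more NUPR1, FGF21, ADM2 and GDF15 than any HPLM library. Library 1 of the same medium held the least GDF15, ADM2 and NUPR1 of the 6. With all libraries no medium difference passed the test for the 3 members tested, and without library 1 the same 3 were lower in HPLM.

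GDF15 was also the most abundant of the 6 transcripts in HT29. It was at 251.6, 227.6 and 211.8 TPM in HPLM and at 28.7, 296.2 and 323.4 TPM in RPMI-1640 libraries 1, 2 and 3. Library 1 lay below all 11 others of the series. With all HT29 libraries the log2 change was 0.70 ± 0.90 (limma, adjusted p = 0.683). Without library 1 it was -0.43 ± 0.12 (adjusted p = 0.0333), the means of 309.8 and 230.3 TPM being 1.34-fold apart.

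ADM2 was at 18.4, 16.7 and 14.8 TPM in HPLM. The RPMI-1640 libraries held 2.63, 31.0 and 31.1 TPM. Libraries 2 and 3 were nearly equal, and library 1 lay 11.8-fold below their mean. Limma gave 0.18 ± 0.84 with all libraries (adjusted p = 0.918) and -0.87 ± 0.12 without library 1 (adjusted p = 0.00368). The RPMI-1640 mean was then 1.86-fold that in HPLM.

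On the log2(TPM + 1) scale NUPR1 had the widest range of the 6 genes. HPLM libraries held 21.5, 19.6 and 19.8 TPM, close to the HPLM libraries of H441, and RPMI-1640 libraries held 1.42, 121.1 and 141.5 TPM. The RPMI-1640 group thus held both the lowest and the highest NUPR1 values of the series. All 6 libraries gave a log2 change of -0.71 ± 1.52 (limma, adjusted p = 0.815). Leaving out library 1 gave -2.63 ± 0.12 (adjusted p = 0.000194), with RPMI-1640 6.47-fold above HPLM.

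FGF21 in HT29 was nearly confined to 2 of the 6 libraries. RPMI-1640 libraries 2 and 3 listed 6.57 and 7.19 TPM, from 66 and 101 reads, and library 1 listed 0.372 TPM, from 2 reads. The HPLM libraries listed 0.301, 0 and 0.331 TPM, from 3, 0 and 4 reads, and 3 reads would have been 0.341 TPM in the library at 0. The groups did not overlap, although library 1 lay only just above the HPLM libraries. With no filter and all libraries the log2 change was -1.87 ± 0.74 (limma, adjusted p = 0.277). Without library 1 it was -2.71 ± 0.16 (limma with the filter, adjusted p = 0.000336). FGF21 entered that fit only through the RPMI-1640 libraries where it is high, so its direction was fixed by entry. The means were then 32.7-fold apart, a ratio that rests on 7 reads in HPLM.

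STC1 and STC2 stayed at the limit of detection in HT29 too. STC1 had 3, 0 and 4 reads in HPLM and 0, 3 and 2 reads in RPMI-1640. STC2 had between 1 and 4 reads in each of the 6 libraries, and no more than 0.159 TPM. No difference between media was detectable at this depth (limma with no filter, adjusted p = 0.905 for STC1 and 0.842 for STC2).

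In HT29 with all libraries, 0 of the 3 members that passed the filter were called by limma, 0 at an unadjusted p under 0.05, beside 6.11% of all 16352 genes. Without RPMI-1640 library 1 these 3 were lowered, beside 21.4% of all 17273 genes lowered and 39.2% called in either direction. FGF21 was lowered too, but it passed the looser filter of that fit only through the RPMI-1640 libraries where it is high, so its entry fixed its direction. EdgeR on recovered reads without that library also lowered GDF15, ADM2, NUPR1 and FGF21, beside 30.9% of genes. In the authors' deposited table, which used all libraries, 1 of the 4 members listed passed the threshold beside 21.2% of all genes. There FGF21 had a log2 fold change of -4.42 (adjusted p = 0.00233), NUPR1 -2.10 (adjusted p = 0.291), ADM2 -0.36 (adjusted p = 0.80) and GDF15 0.11 (adjusted p = 0.939).

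**Figure D1:**
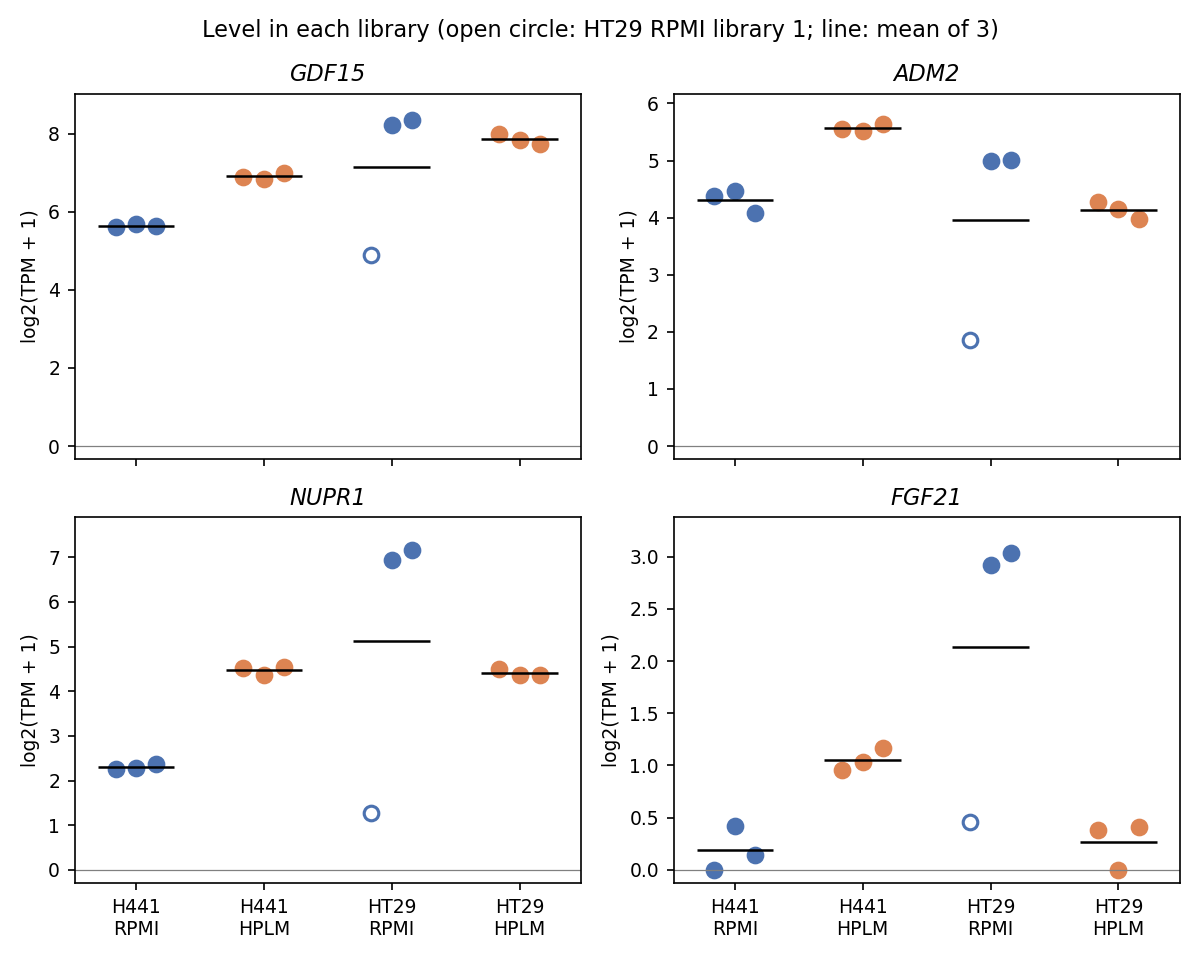
Level of GDF15, ADM2, NUPR1 and FGF21 in each of the 12 libraries, as log2(TPM + 1), with 1 point per library, the mean of 3 as a line and HT29 RPMI-1640 library 1 as an open circle. In H441 all HPLM points lie above all RPMI-1640 points, and in HT29 the RPMI-1640 points split, with library 1 at 1.42 TPM of NUPR1 and the other libraries at 121.1 and 141.5 TPM.

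The levels of each gene over the 4 groups are set side by side without a test, since each line has its own table. HT29 RPMI-1640 library 1 is left out of these orders. For GDF15 the order from the top was HT29 in RPMI-1640, HT29 in HPLM, H441 in HPLM and H441 in RPMI-1640, with no overlap between neighbours. For ADM2 it was H441 in HPLM, then HT29 in RPMI-1640, then H441 in RPMI-1640 and HT29 in HPLM, the latter pair overlapping. For NUPR1, HT29 in RPMI-1640 came first, H441 in HPLM and HT29 in HPLM overlapped near 20 TPM, and H441 in RPMI-1640 came last. For FGF21, HT29 in RPMI-1640 came first and H441 in HPLM next, and the other pair of groups overlapped below 0.34 TPM.

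Whether the response to HPLM differed between lines was tested as an interaction over all 12 libraries, HT29 minus H441. With all libraries, 1 of 4 members tested differed, beside 14.4% of 19212 genes: FGF21, at -2.74 ± 0.77 (limma, adjusted p = 0.0401). FGF21 passed the filter of this fit only through libraries of the groups where it is high, and it did not pass in either line alone, so its call is a description. The other values were -0.56 ± 1.01 for GDF15 (adjusted p = 0.765), -1.07 ± 0.94 for ADM2 (adjusted p = 0.506) and -2.88 ± 1.71 for NUPR1 (adjusted p = 0.308). With DESeq2 on recovered reads of all 12 libraries the NUPR1 difference was called (-4.36, adjusted p = 0.0148). Without HT29 RPMI-1640 library 1, which leaves 2 libraries in that group, GDF15, ADM2 and NUPR1 differed, each toward lower values in HT29. As that library was set apart by its values, these p-values may overstate the evidence. Over all genes 25.0% differed in that direction and 34.3% in either. FGF21 was called the same way, but it passed that filter through the same groups, so its call is again a description. GDF15 then differed by -1.69 ± 0.12 (adjusted p = 1.6e-05), ADM2 by -2.12 ± 0.16 (adjusted p = 2.64e-05), FGF21 by -3.58 ± 0.21 (adjusted p = 6.46e-06) and NUPR1 by -4.81 ± 0.12 (adjusted p = 1.79e-07). The FGF21 call with all libraries was lost when any 1 of the 11 other libraries was left out. Of the 3 members tested in both lines, 3 rose in H441 and fell in HT29 without library 1, as did 734 of 14382 genes (5.10%).

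**Figure D2:**
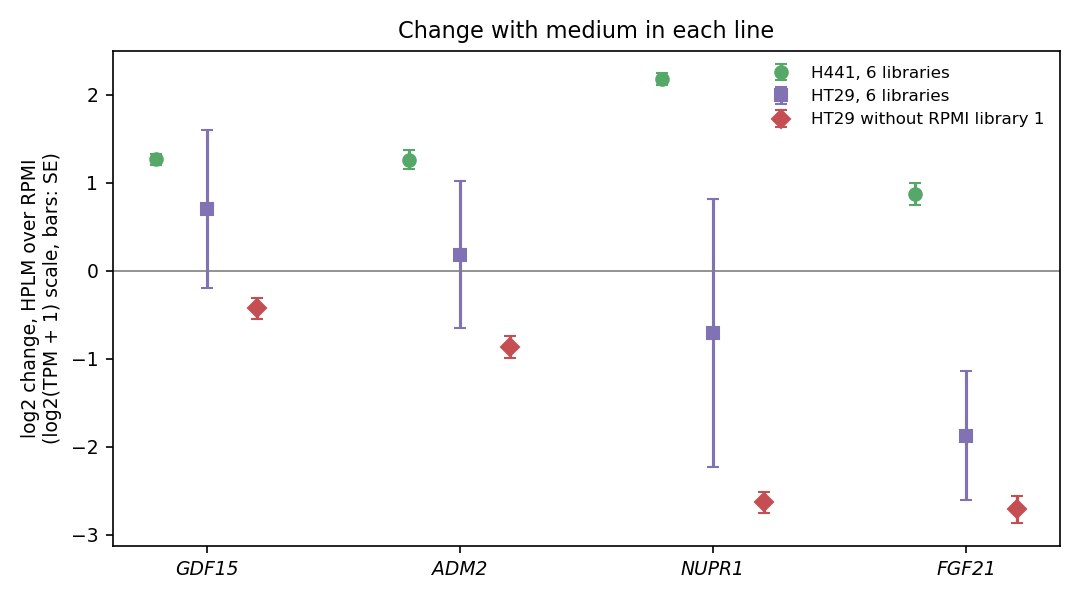
Log2 change of each gene, HPLM over RPMI-1640, on the log2(TPM + 1) scale with its SE, in H441, in HT29 with all libraries and in HT29 without RPMI-1640 library 1 (FGF21 from fits with no filter where it did not pass). The H441 values lie between 0.87 and 2.17, those of HT29 without library 1 between -2.71 and -0.43, and those of HT29 with all libraries have errors of 0.74 to 1.52. The value of -2.71 is that of FGF21, which entered its fit only through the RPMI-1640 libraries where it is high.

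Set against its companions, HT29 RPMI-1640 library 1 was low in the 4 expressed members. NUPR1 was 92.5-fold lower in library 1 than the mean of libraries 2 and 3, FGF21 18.5-fold, ADM2 11.8-fold and GDF15 10.8-fold. On the log2(TPM + 1) scale NUPR1 ranked 1 of 16352 genes from the most lowered, GDF15 43 and ADM2 66. By reads, library 1 held 33 of NUPR1, 46 of ADM2 and 245 of GDF15, while libraries 2 and 3 held 5261 and 8600, 1014 and 1425, and 4735 and 7230. All 3 members tested were lower than both companions by 2-fold or more, as were 9.88% of all genes, and 11.1% were higher by as much. The HPLM mean was 14.3-fold above library 1 for NUPR1, 8.04-fold for GDF15 and 6.34-fold for ADM2. Among the lists described below, library 1 was lower than both companions by 2-fold or more for 5 of 8 feedback regulators, 9 of 25 ATF4 targets, 7 of 19 sensors and factors and 4 of 9 relatives of the members. The same held for 7 of 22 p53 targets, 6 of 24 hypoxia targets, 4 of 23 other secreted factors and 1 of 11 PPARA targets. It held for 0 of 9 processing enzymes and binding partners and 0 of 4 receptors. Higher by as much were 2 sensors and factors, 3 p53 targets, 2 hypoxia targets and 3 other secreted factors. So were 2 processing enzymes and binding partners, 1 PPARA target and 1 receptor. The part of depth or of the mitochondrial share in the difference between library 1 and its companions was not tested.

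**Figure D3:**
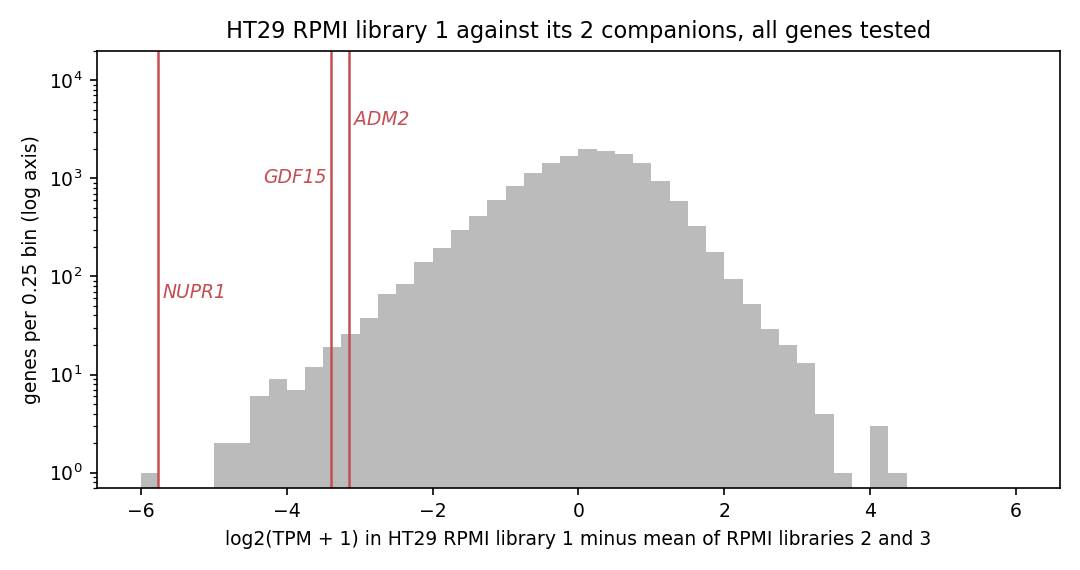
Distribution over 16352 genes of the difference between HT29 RPMI-1640 library 1 and the mean of libraries 2 and 3, in log2(TPM + 1), with the number of genes per bin on a log axis and GDF15, ADM2 and NUPR1 as red lines. All 3 lie in the lower tail, and NUPR1, at -5.77, lies farthest out of all genes.

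Several transcription factors of the integrated stress response were also higher in HPLM in H441. Whether they act on the hormone genes in these cells was not tested. Of 19 sensors and transcription factors of the integrated stress response 12 rose and 0 fell in HPLM (median log2 change 0.29, against 0.14 over all genes). Over all genes 33.7% rose and 11.3% fell. ATF3, an ATF4-induced factor, rose by 3.29 ± 0.06, from 9.31 TPM on average to at least 98.9 TPM in each library, and DDIT3, the CHOP gene, rose by 3.22 ± 0.05, from 110.8 to 1037 TPM. CEBPG, a partner of ATF4, rose by 1.24. The ATF4 transcript itself was at 720.7 ± 10.6 TPM in RPMI-1640 and 781.0 ± 18.7 TPM in HPLM (0.12 ± 0.04, limma, adjusted p = 0.0851), a direction that turned under each other scaling tried. With trimmed mean scaling 9 of the 19 rose and 3 fell, and the split over all genes moved from 5546 raised and 1858 lowered to 3701 and 3704.

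Feedback regulators and ATF4 targets moved the same way in H441, where 33.7% of all genes rose and 11.3% fell. All 8 feedback regulators tested rose, 6 of them also with trimmed mean scaling, with a median of 1.49. PPP1R15A, which directs the phosphatase that reverses eIF2alpha phosphorylation, rose by 2.76, TRIB3, a pseudokinase that restrains ATF4, by 1.84 and SESN2, a sensor that restrains mTORC1, by 1.68. Of 26 enzymes and transporters known as ATF4 targets 22 rose and 1 fell (median 0.73), 22 and 2 with trimmed mean scaling. SLC1A4, a neutral amino acid transporter, rose by 1.84, ASNS, asparagine synthetase, by 1.30 and CTH, which makes cysteine, by 1.27. The target that fell was ALDH18A1, a proline synthesis enzyme, by 0.24 on the log2 scale.

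In HT29 the same lists depended on RPMI-1640 library 1 as the members did. With all libraries 0 of 19 sensors and factors, 0 of 8 feedback regulators and 1 of 25 ATF4 targets were called, beside 6.11% of all genes. The target called was ALDH18A1, which fell by 0.98 (by 1.06 without library 1). Without library 1, 19 of 25 ATF4 targets fell and 0 rose (median -0.62), 5 of 8 feedback regulators fell and 2 rose, and 7 of 19 sensors and factors fell and 2 rose. Over all genes 21.4% fell and 17.8% rose in that fit. ASNS was at 54.0, 493.6 and 537.4 TPM in RPMI-1640 libraries 1 to 3 and at 219.9 ± 16.2 TPM in HPLM, and its change without library 1 was -1.23 (adjusted p = 0.00105). ATF4 was at 263.5, 1172 and 1366 TPM in RPMI-1640 and 972.4 ± 60.7 TPM in HPLM. Without library 1 ATF4 fell by 0.38 and TRIB3 by 0.51, while DDIT3 (-0.10, adjusted p = 0.464) and ATF3 (-0.18, adjusted p = 0.219) did not pass the test. Without library 1, 26 of 26 ATF4 targets differed between lines toward lower values in HT29, beside 25.0% of all genes. With all libraries 15 of 26 did, beside 11.4% of all genes.

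In H441 the log2 changes of ATF3 and DDIT3, at 3.29 and 3.22, were larger than that of any member. DDIT3 in HT29 was at 39.7, 220.5 and 235.7 TPM in the RPMI-1640 libraries and 212.6 ± 9.24 TPM in HPLM. The feedback regulator DDIT4, an mTORC1 inhibitor named here after its values were seen, was at 16.6, 358.1 and 354.6 TPM in RPMI-1640 and 43.2 ± 5.35 TPM in HPLM. PPP1R15A and IMPACT, of the same list, went the other way. As log2(TPM + 1) minus the HT29 mean, PPP1R15A was at 0.65, 0.56 and 0.39 in HPLM. In RPMI-1640 libraries 1 to 3 it was at -1.69, -0.043 and 0.15. IMPACT was at 0.33, 0.29 and 0.086 in HPLM and at 0.15, -0.35 and -0.50 in RPMI-1640.

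**Figure D4:**
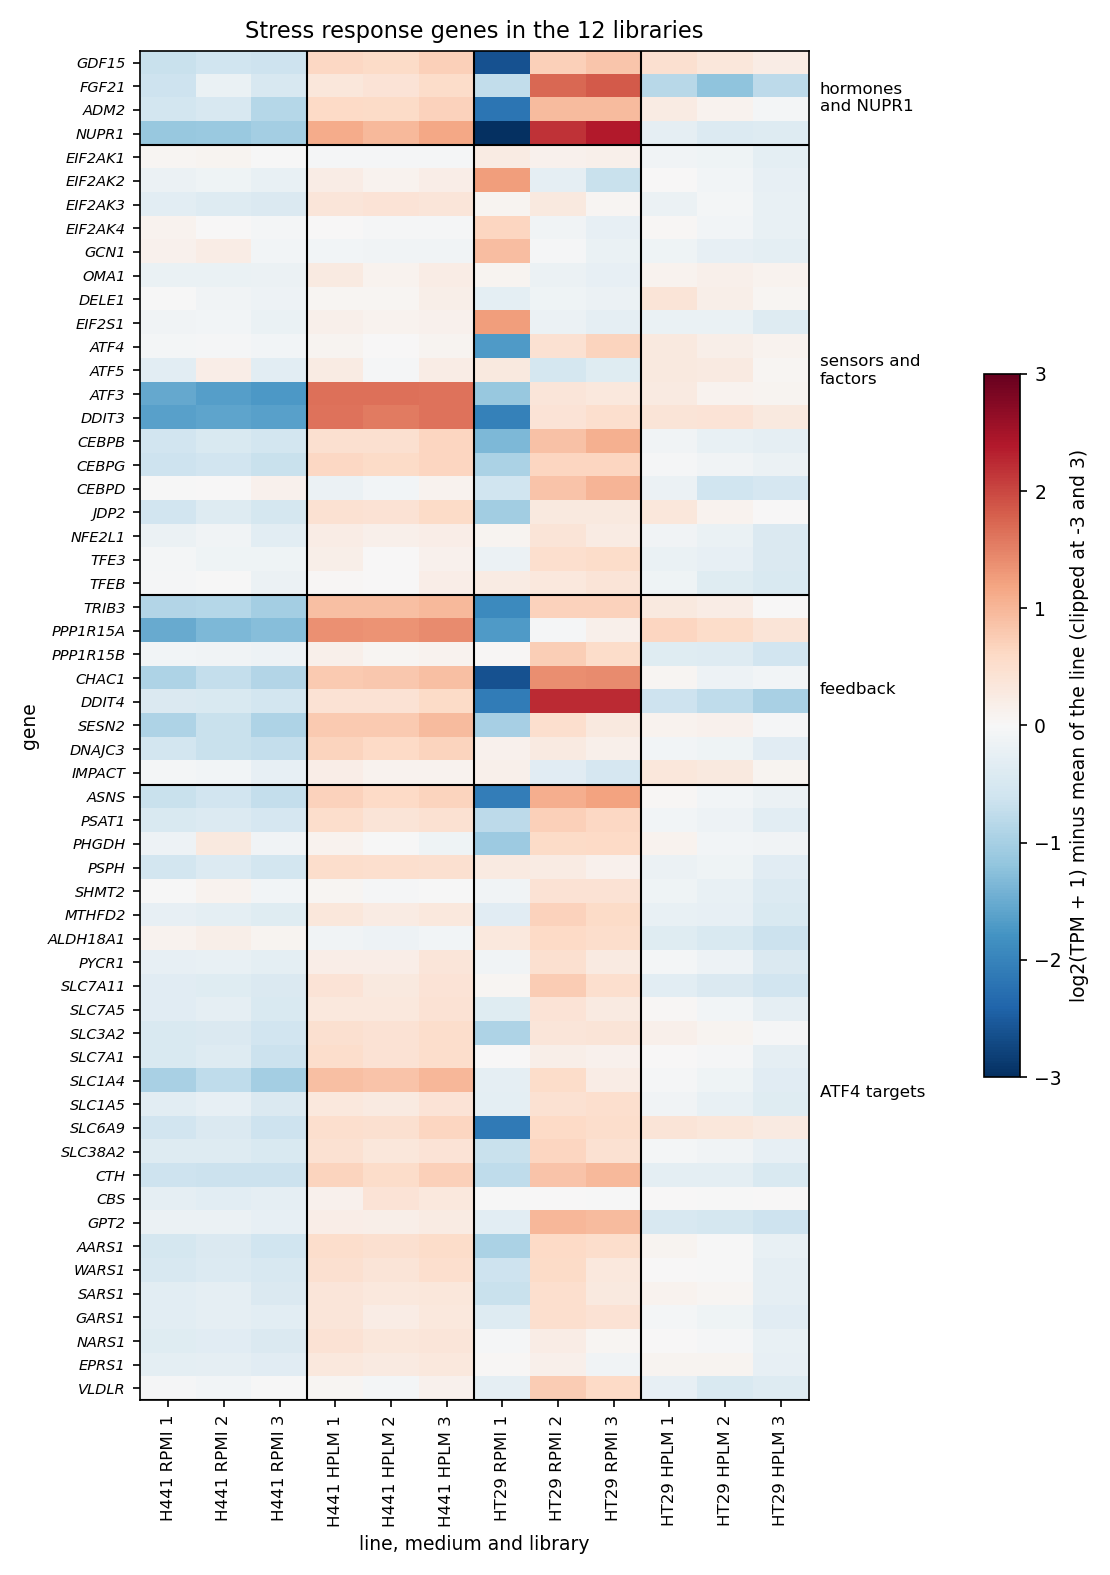
Heat map of 4 members and the sensors, factors, feedback regulators and ATF4 targets in the 12 libraries, as log2(TPM + 1) minus the mean of the gene over the 6 libraries of its line, clipped at -3 and 3. In H441 most genes are blue in RPMI-1640 and red in HPLM, and in HT29 the column of RPMI-1640 library 1 stands against those of libraries 2 and 3, for example for NUPR1, GDF15, ADM2, CHAC1 and DDIT4.

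Near relatives of the hormones divided. In H441, where 33.7% of all genes rose and 11.3% fell, 5 of 10 tested relatives rose and 2 fell, and with trimmed mean scaling 5 rose and 4 fell. INHBE, the activin E subunit of the same TGF-beta superfamily as GDF15, rose by 1.91, from 1.22 to 7.34 TPM, TGFB2 by 1.36 and BMP2 by 1.26. ADM, adrenomedullin, a vasodilator peptide of the same family as ADM2, rose by 1.08, from 5.92 ± 0.909 to 13.6 ± 0.795 TPM. In HT29 with all libraries 0 of 9 rose and 2 fell, beside 2.53% and 3.58% of all genes: GDF11, by 1.11, and TGFB1, by 0.78 (1.17 and 0.72 without library 1). Without library 1, 7 of 9 fell and 2 rose, beside 21.4% and 17.8% of all genes. INHBE was at 0.486, 11.3 and 10.2 TPM in RPMI-1640 and 1.41 ± 0.126 TPM in HPLM (-2.28 without library 1), and ADM was at 8.53, 64.7 and 75.0 TPM and 19.8 ± 1.57 TPM (-1.77). FGF19, an intestinal hormone of the same FGF subfamily as FGF21, was named after its values were seen. It was at 18.1, 173.4 and 171.4 TPM in HT29 RPMI-1640 libraries 1 to 3 and 48.7 ± 4.54 TPM in HPLM, and at no more than 0.155 TPM on average in either medium of H441.

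The receptor genes GFRAL and CALCRL were near 0 in both lines, and the co-receptor gene KLB averaged under 1 TPM in H441. GFRAL, KLB and CALCRL were named after their values were seen and are given as levels. GFRAL, the GDF15 receptor, averaged at most 0.023 TPM in any group. KLB, which encodes beta-Klotho, averaged 0.321 TPM in RPMI-1640 and 0.633 TPM in HPLM in H441. CALCRL, the core of the ADM2 receptor, averaged at most 0.538 TPM. Its accessory protein RAMP1 was higher: 45.7 ± 2.69 TPM in RPMI-1640 and 39.6 ± 1.12 TPM in HPLM in H441, where it fell by 0.20 (adjusted p = 0.0405), a call lost when any library was left out. In HT29 RAMP1 rose by 2.53 ± 0.23 (limma, adjusted p = 0.00953), from 1.78, 0.952 and 1.66 TPM in RPMI-1640 to 13.3 ± 3.27 TPM in HPLM, and library 1 lay with its companions (2.62 without it). The FGF receptor FGFR3 fell by 1.60 and FGFR2 rose by 0.81 in the 6 HT29 libraries. With library 1 left out these values were 1.75 and 0.92. Of the 6 fits that left out 1 HT29 library each, 2 kept the RAMP1 call (those without RPMI-1640 library 1 or 3), and 1, that without RPMI-1640 library 1, kept those of FGFR3 and FGFR2. In all, 1 of 2 receptors tested in H441 fell, beside 11.3% of all genes, and in HT29 2 of 4 rose and 1 fell, beside 2.53% and 3.58%.

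Enzymes that process the hormones, and their binding partners, had called changes of at most 0.40 in H441. FURIN, a protease that cleaves precursor proteins such as that of GDF15, fell by 0.33 in H441, from 58.8 ± 5.66 to 46.6 ± 3.20 TPM, and PAM, which amidates peptides such as ADM2, ranged from 133.4 to 133.5 TPM in RPMI-1640 and was at 129.6 ± 1.41 TPM in HPLM (-0.041, adjusted p = 0.457). IGFBP4, a substrate of the STC2 target PAPPA, fell by 0.29. EP300, an acetyltransferase that NUPR1 binds, rose by 0.40. In H441 1 of 7 tested rose and 3 fell, beside 33.7% and 11.3% of all genes, the FURIN and IGFBP4 calls being lost when most single libraries were left out. In HT29 0 of 9 were called with all libraries, and without library 1 2 rose and 4 fell, beside 17.8% and 21.4% of all genes. FURIN was at -0.66 with all libraries and -0.71 without library 1, and PAM at 0.19 and 0.47.

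A list of other secreted factors that stress can induce rose widely in H441, where 33.7% of all genes rose and 11.3% fell. The list is not of secreted factors alone, since it holds SDF2L1. Of 24 tested 18 rose and 2 fell (median 1.09), 17 and 2 with trimmed mean scaling. HBEGF, an EGF receptor ligand, rose by 2.86, from 7.68 to 62.1 TPM, SDF2L1, a protein of the endoplasmic reticulum, by 1.99 and the chemokine CXCL2 by 1.63. VEGFA, the endothelial growth factor, rose by 1.47. In HT29 2 of 23 rose and 3 fell with all libraries, beside 2.53% and 3.58% of all genes. The 3 were SPP1, osteopontin, which fell by 1.40, and the EGF receptor ligands AREG, by 1.19, and EREG, by 1.18 (by 1.53, 1.42 and 1.19 without library 1). Of the 6 fits that left out 1 HT29 library each, only that without RPMI-1640 library 1 kept the calls of SPP1, AREG, EREG, GDF11, TGFB1 and ALDH18A1. Without library 1, 5 of 24 rose and 10 fell, beside 17.8% and 21.4% of all genes. VEGFA, at 20.1, 164.5 and 161.0 TPM in RPMI-1640 and 123.0 ± 1.74 TPM in HPLM, was among the 10 that fell (by 0.40).

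**Figure D5:**
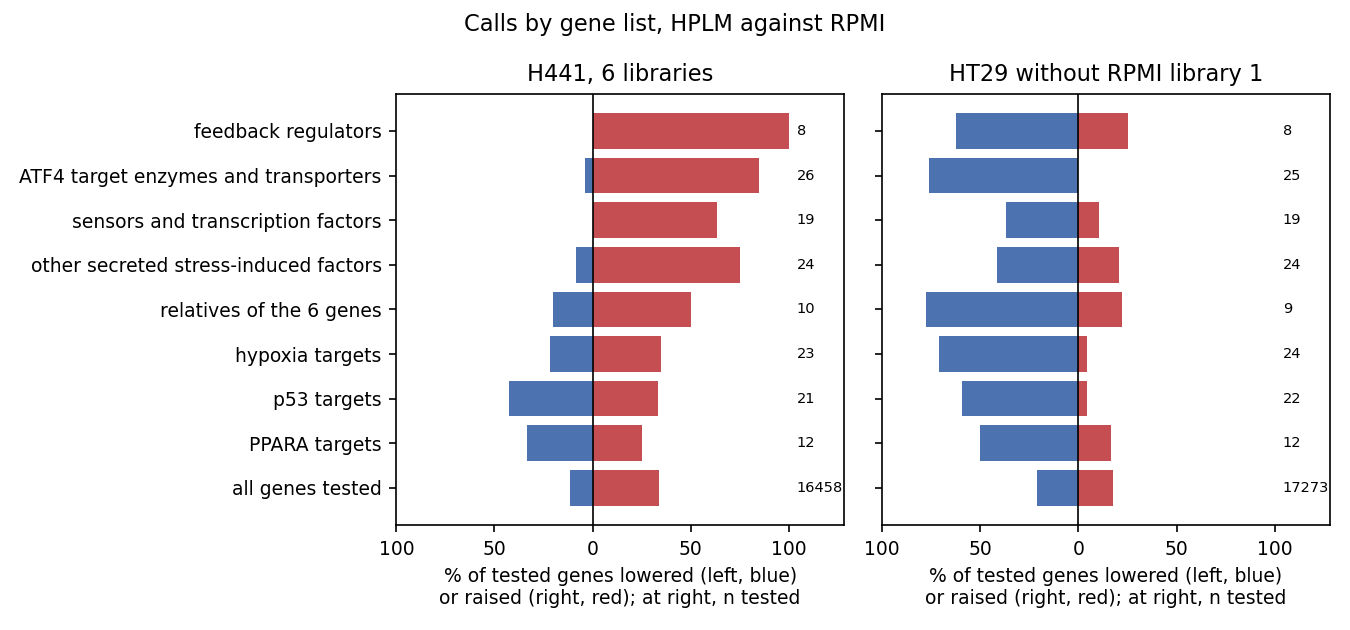
Share of the tested genes of each list that rose (right) or fell (left) in HPLM, in H441 with 6 libraries and in HT29 without RPMI-1640 library 1, with the number tested at the right and all genes tested at the bottom. All 8 feedback regulators and 22 of 26 ATF4 targets rose in H441, and 19 of 25 ATF4 targets fell in HT29. Of all genes 33.7% rose in H441 and 21.4% fell in HT29.

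Over the 12 libraries, after the mean of each line was subtracted, the members followed one another to different degrees. Pearson's r of log2(TPM + 1) was 0.977 between GDF15 and ADM2, 0.965 between ADM2 and NUPR1, and 0.911 between GDF15 and NUPR1. FGF21 gave 0.805 with NUPR1, 0.647 with ADM2 and 0.498 with GDF15. Among 9687 genes compared, those most like GDF15 were JUN, an AP-1 subunit (0.998), SLC6A9, a glycine transporter (0.996), and GTPBP2 (0.994). ADM2 was most like CARS1, a cysteinyl-tRNA synthetase (0.996), BTG1 (0.993) and the translation factor gene EIF1 (0.992). NUPR1 was most like SYTL1 (0.997), ASNS (0.993) and CEBPB, a C/EBP factor (0.992). FGF21 was most like SNAI1 (0.986), GPT2, an alanine aminotransferase (0.983), and ARRDC2 (0.981). The points share their libraries, 3 to a group, so these values are a description with no p. HT29 RPMI-1640 library 1 weighs heavily in them: without it 2 of these 12 genes stayed among the 3 most alike, although r between GDF15 and JUN was 0.993 and between ADM2 and GDF15 0.955. JUN was at 49.1 ± 1.03 TPM in RPMI-1640 and 91.8 ± 4.08 TPM in HPLM in H441, and at 52.1, 251.1 and 272.5 TPM in RPMI-1640 and 202.0 ± 14.5 TPM in HPLM in HT29.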

How the data were processed

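The submitters' processing notes name the build GRCh38 and the tools DESeq2, Subread 1.5.2, STAR 2.5.2b and Trimmomatic 0.36. The annotation is not given in the sources used here. Per line, the authors deposited TPM values for 58051 gene identifiers and a second table with their log2 fold change, p-value and adjusted p-value. That table also holds the deposited signal per library, read counts divided by a size factor, from which whole reads were recovered: 100% of values lay within 0.01 of a whole number. Reads of members outside that table were recovered from TPM and GENCODE v29 exon length, which gave at most 0.0208 from a whole number.

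Each line was fitted with limma 3.58.1 in R 4.3.3 on log2(TPM + 1), medium only, for genes with at least 1 TPM in at least 3 libraries (at least 2 when a library was left out). Tests were two-sided with Benjamini-Hochberg adjustment over all genes tested, threshold 0.05. Fold changes on this scale understate those of low genes. EdgeR 4.0.16 and DESeq2 1.42.0 on recovered counts were alternatives, beside other pseudocounts, filters and scalings, array weights, a replicate block and leaving out each library. Fits of all 6 members' reads, and fits without HT29 RPMI-1640 library 1 under another scaling or test, were added after the data were seen. The limma script was tested on simulated data.

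The members and gene lists were chosen with earlier results of these data known. Genes were named by rule: all members, the 3 largest called changes per list and line with a mean of at least 1 TPM, the 3 genes most alike to each member with a mean of at least 5 TPM in each line, and ATF4, DDIT3, ATF3, TRIB3, ASNS, CDKN1A, VEGFA, ADM, INHBE, FURIN and PAM. Other genes were named after their values were seen. RefSeq promoter windows were found for 4 of the 6 members.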

Additional observations from a re-analysis of the deposited data

Results flagged for a closer look

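The effect of HPLM on FGF21 differed between the lines by an interaction term over all 12 libraries. It was lower in HT29 than in H441 by -2.74 ± 0.77 on the log2(TPM + 1) scale (limma, adjusted p = 0.0401). FGF21 passed the filter on low values only through libraries of the groups where it is high. FGF21 was higher in HPLM in 3 of 3 H441 libraries than in any RPMI-1640 library, and lower in HPLM in 3 of 3 HT29 libraries, although HT29 RPMI-1640 library 1, at 0.372 TPM, lay just above them. Without that library the difference was -3.58 ± 0.21 (limma, adjusted p = 6.46e-06). FGF21 entered that fit through the same groups, so this value is a description. Leaving out any other single library gave between -2.86 and -2.29, with an adjusted p of 0.0687 to 0.0947. Over the other alternatives the adjusted p ranged from 1.2e-07 to 0.0768.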

How the results depend on the processing

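Depth limited STC1 and STC2 in both lines and FGF21 in H441 and HT29 HPLM, where most libraries held under 10 reads. In H441 the calls of GDF15, ADM2 and NUPR1 held under every alternative run, and edgeR on recovered reads of all members called 5. The split of all genes in H441, 5546 raised and 1858 lowered, became 3701 and 3704 with trimmed mean scaling, 3208 and 4171 with median centring, 4004 and 3355 without mitochondrial genes, 4378 and 4193 with edgeR, and 3662 and 3775 in the authors' deposited table. The labels do not say whether library numbers pair the libraries of the media. Correlations of same-numbered deviations were -0.03, 0.02 and -0.003 in H441 and 0.05, -0.10 and 0.17 in HT29. Those of unlike numbers ranged from -0.03 to 0.04 in H441 and from -0.17 to 0.12 in HT29. With 3 libraries per group these values cannot settle the question.

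In HT29 the members called, 0 with all libraries, were 2 with array weights, 1 with DESeq2 and in the authors' deposited table, and 4 without RPMI-1640 library 1 with trimmed mean scaling, median centring or edgeR. Of these 4, FGF21 entered the limma fits without library 1 only through the RPMI-1640 libraries where it is high. Its direction there was fixed by entry. Genes called, 999, became 1570 with trimmed mean scaling, 1522 without mitochondrial genes, 8250 with array weights, 1745 with edgeR (1741 with all members), and 3416 with DESeq2 and in the authors' deposited table. With the replicate block limma called 0 (3611 at an unadjusted p under 0.05). Without library 1 the count was 8528 of 17273 genes with trimmed mean scaling, 8427 of 17273 with median centring and 9909 of 16128 with edgeR. Leaving out each library in turn gave 0 to 4 members and 0 to 6767 genes, the highest without RPMI-1640 library 1 and 0 genes without HPLM library 1 or 3 (2770 and 2726 at an unadjusted p under 0.05). For the difference between lines, members called, 1, became 0 with no filter, a filter of 5 TPM, trimmed mean scaling, median centring, no mitochondrial genes, edgeR or the replicate block, with 1 member at an unadjusted p under 0.05 in each but the filter of 5 TPM (NUPR1 with edgeR, where FGF21 was not tested, and FGF21 in the others). DESeq2 called 1, NUPR1, and edgeR on recovered reads of all members called 1. Members called became 4 with array weights and 4 without library 1 under each added setting. FGF21, among them each time, passed the limma filters only through libraries of the groups where it is high. Genes called, 2773 of 19212, became 7969 with array weights and 1656 with the replicate block. Without library 1 they were 8203 of 20296 with trimmed mean scaling, 7934 of 20296 with median centring and 7675 of 13963 with edgeR. Leaving out each library gave 0 to 4 members and 1712 to 6965 genes. The cause was not tested.

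Directions turned for single genes. ATF4 in H441 was -0.045 with trimmed mean scaling, -0.066 with median centring, -0.020 without mitochondrial genes, -0.035 with edgeR on either set of reads, and -0.045 with DESeq2 and in the authors' deposited table. With array weights in HT29, GDF15 was -0.35, ADM2 -0.80, ATF4 -0.31, DDIT3 -0.019, ATF3 -0.18, TRIB3 -0.43 and VEGFA -0.37. Without RPMI-1640 library 1, values with trimmed mean scaling, median centring and edgeR were -0.40, -0.39 and -0.41 for GDF15, -0.84, -0.83 and -0.88 for ADM2, -0.35, -0.35 and -0.37 for ATF4, -0.073, -0.066 and -0.082 for DDIT3, -0.16, -0.15 and -0.17 for ATF3, -0.48, -0.48 and -0.49 for TRIB3, and -0.37, -0.37 and -0.38 for VEGFA, with STC2 at 0.24 by edgeR. With all libraries ADM2 was -0.36 with edgeR on either set of reads, with DESeq2 and in the authors' deposited table, TRIB3 was -0.0020 with edgeR on either set of reads and -0.0091 with DESeq2 and in the authors' table, and ASNS was 0.0089 without mitochondrial genes. Leaving out each HT29 library gave ranges of -0.43 to 1.30 for GDF15, -0.87 to 0.71 for ADM2, -2.63 to 0.31 for NUPR1, -0.38 to 0.80 for ATF4, -0.10 to 1.17 for DDIT3, -0.18 to 0.56 for ATF3, -0.51 to 0.79 for TRIB3, -1.23 to 0.42 for ASNS and -0.40 to 1.08 for VEGFA, and of -1.69 to 0.034 for the difference of GDF15 between lines. The cause was not tested.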

Other observations

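Lists of targets of other regulators known to act on these hormone genes held both raised and lowered genes in H441, where 33.7% of all genes rose and 11.3% fell. Of 21 tested p53 targets, 7 rose and 9 fell in HPLM (median log2 change 0.01), among them TNFRSF10B, a death receptor that rose by 1.17, GADD45A, a DNA damage gene that rose by 0.81, and SESN1, which fell by 0.64. CDKN1A, the p21 gene, rose by 0.61. Of 23 hypoxia targets, 8 rose and 5 fell (median 0.18), and with trimmed mean scaling 6 rose and 7 fell. VEGFA rose by 1.47, ADM by 1.08 and HK2, a glycolytic hexokinase, by 1.05. Of 12 targets of the fatty acid sensor PPARA, 3 rose and 4 fell (median -0.20), 2 and 8 with trimmed mean scaling, with PLIN2, a lipid droplet protein, raised by 1.24 and CPT2, a fatty acid oxidation enzyme, lowered (-0.40). PDK4, which restrains pyruvate oxidation, also fell (-0.35), a call lost when most single libraries were left out.

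In HT29 with all libraries 0 of 22 p53 targets rose and 3 fell, 0 of 24 hypoxia targets rose and 4 fell, and 1 of 11 PPARA targets rose and 1 fell, beside 2.53% of all genes raised and 3.58% lowered. The p53 targets were FAS, which fell by 1.73, DDB2 (-0.95) and CCNG1 (-0.79). Among the hypoxia targets PFKFB3, a glycolytic regulator, fell by 1.32, and the collagen hydroxylases P4HA1 and P4HA2 by 1.18 and 1.11. VNN1 rose by 1.15 and SLC25A20 fell by 0.80. Of the 6 fits that left out 1 HT29 library each, only that without RPMI-1640 library 1 kept these calls, except that PFKFB3 was also called without RPMI-1640 library 3. Values without library 1 were -1.33 for FAS, -0.84 for DDB2, -0.87 for CCNG1, -1.24 for PFKFB3, -1.45 for P4HA1, -1.34 for P4HA2, 1.07 for VNN1 and -0.74 for SLC25A20. Without RPMI-1640 library 1 the hypoxia list had 1 gene raised and 17 lowered of 24 (median -0.70), the p53 list 1 and 13 of 22 (median -0.56) and the PPARA list 2 and 6 of 12 (median -0.37), beside 3074 raised and 3693 lowered of all 17273 genes. CDKN1A was at 19.0, 45.8 and 42.1 TPM in RPMI-1640 and 13.8 ± 2.09 TPM in HPLM (-1.62 without library 1, limma, adjusted p = 0.000976).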
